A study of Mus musculus with 10 samples.

Results

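Notch signalling genes were followed in endothelial cells isolated from mouse hearts. The set holds 10 of the 46983 genes counted and was chosen by gene symbol, with earlier results of these data known. It comprises the receptors Notch1 and Notch4, the ligands Dll1, Dll4, Jag1 and Jag2, the target genes Hes1, Hey1 and Hey2, and Rbpj. All 10 had enough reads to be tested. Male wild-type C57BL/6J mice, aged 8 weeks when the diets were first offered, received either a control diet (5 mice) or a ketogenic diet, rich in fat and nearly free of carbohydrate (5 mice), for 14 days. Both groups were offered standard chow beside the new diet at the start. Cardiac cells were captured with magnetic beads carrying antibodies to CD31, a surface protein of endothelial cells, and polyA RNA was sequenced with 1 library per mouse. The comparison asks how the ketogenic diet changes gene expression in these cells.

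Notch receptors are activated by ligands on a neighbouring cell. Ligand binding lets proteases release the intracellular part of the receptor, which enters the nucleus, joins the DNA-binding protein Rbpj and switches on genes such as those of the Hes and Hey families. In blood vessels, Dll4 and Notch1 are known to restrain the formation of new tip cells during sprouting and to take part in arterial specification, whereas Jag1 is known as a ligand with an opposing part in sprouting.

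The libraries held 10885154 to 12710861 counted reads. The 7 endothelial markers, among them Pecam1, Cdh5 and Kdr, summed to 3691 to 3904 CPM (counts scaled to the library total) in control mice and to 3597 to 4027 in ketogenic mice. Reads per mouse hardly differed for Pecam1 (6770 to 7020) and Cdh5 (7356 to 7571), whereas those of Kdr ranged from 7281 to 9501. Marker counts were not corrected for a ceiling in the counts (explained with Dll4), and its part in these sums was not tested. Markers of other cells were also present, and no marker of any list was at 0 in all libraries. Of the 8 lymphocyte markers, whose sum was 158 to 242 CPM in control mice and 146 to 167 in ketogenic mice, the B cell gene Cd79a was lower on the ketogenic diet (log2 fold change -0.46, adjusted p = 0.0221 in edgeR, no overlap) and was the only marker of any list that passed. The B cell genes Ms4a1 and Cd79b had values of -0.53 and -0.30 (adjusted p = 0.110 and 0.179 in edgeR). Of the 8 lymphocyte markers, 4 had a log2 fold change above 0 and 4 below 0, with a median of -0.10. The 6 macrophage markers had a median of -0.49, with 5 of 6 below 0 and none called, and summed to 106 to 448 CPM in control mice and 98.5 to 192 in ketogenic mice. The part of these cells in the Notch gene results was not tested. The 9 smooth muscle and pericyte markers summed to 2574 to 2755 CPM in control mice and 2519 to 2780 in ketogenic mice. The 10 cardiomyocyte markers summed to 585 to 747 CPM in control mice and 687 to 1005 in ketogenic mice, and the values that accompany the Notch genes are given with the results they touch. In such bulk samples, fewer cells of a type and less RNA per cell cannot be told apart.

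Notch1 and Dll4 mRNA were lower in the CD31-captured cardiac cells of mice on the ketogenic diet. Notch1 fell by 21.8% and Dll4 fell by 11.8%, and in neither gene did the diets overlap. The other 8 members did not pass the test at an adjusted p-value of 0.05 (edgeR quasi-likelihood test, Benjamini-Hochberg adjustment over 15949 genes). Of all tested genes, 1.34% passed in either direction and 0.527% passed as lower, against 2 of 10 members, both lower. At an unadjusted p under 0.05, 4 of 10 members were lower (Notch1, Notch4, Dll4 and Hey1) and none was higher, beside 9.26% of all tested genes that were lower. The log2 fold change (ketogenic minus control) was below 0 in 9 of 10 members and in 51.4% of all tested genes, and its median was -0.13 over the members and -0.01 over all tested genes. The shares were similar among the 8081 tested genes with a mean level at least that of the lowest member. Of these, 1.72% passed the adjusted test in either direction, 0.643% as lower and 1.08% as higher. At an unadjusted p under 0.05, 20.6% passed in either direction and 9.96% as lower, and 49.7% had a log2 fold change below 0. The diets did not overlap for 2 of 10 members, for 4.34% of all tested genes and for 5.14% of those 8081. With DESeq2 the same 2 members were called, beside 5.61% of the 14595 genes given an adjusted p, and with counts corrected for read start positions (explained with Dll4) the same 2 beside 1.54%. Of 21 alternative analyses, Notch1 kept its call in 20 and Dll4 in 14. Both calls were lost with a cardiomyocyte marker score as covariate (adjusted p = 0.106 and 0.187 in edgeR).

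**Figure D1:**
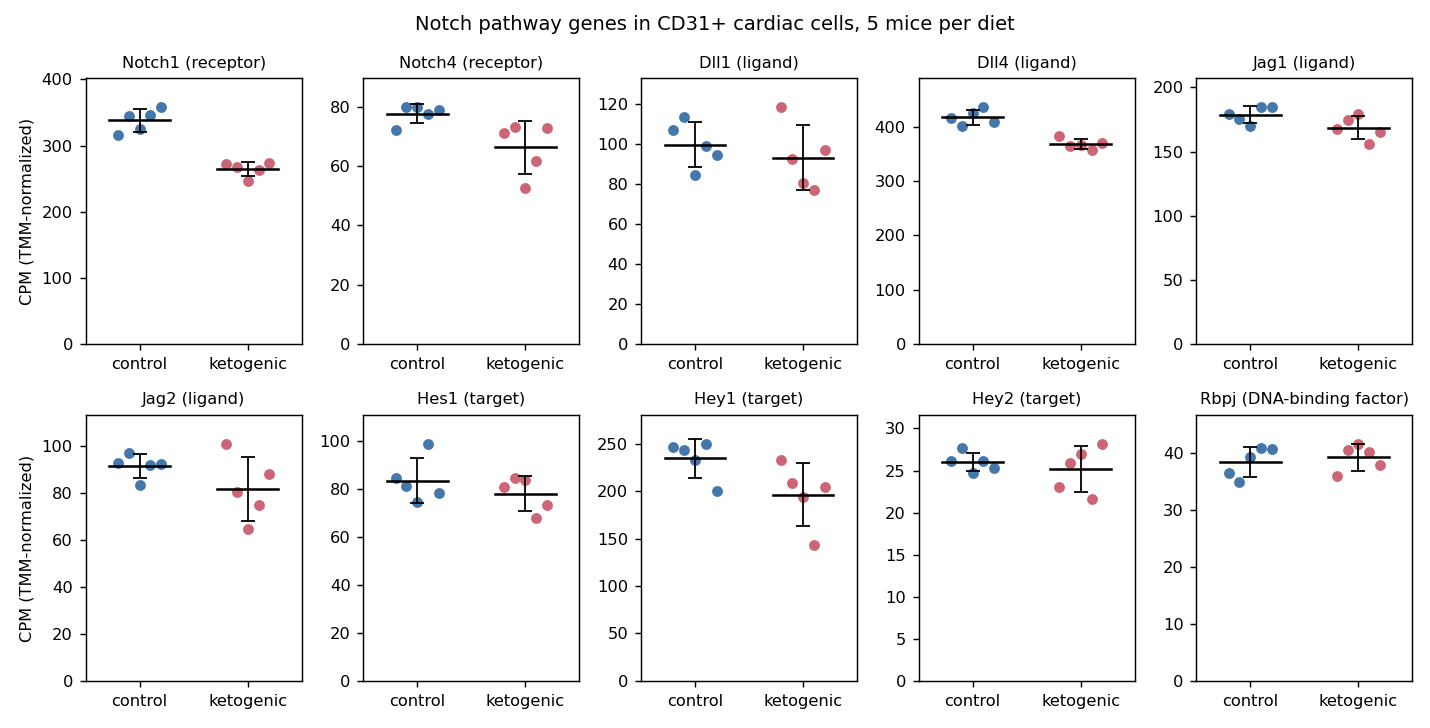
Normalized level of each Notch pathway gene in TMM-normalized CPM by diet, with 1 point per mouse, the mean as a horizontal line and the SD as an error bar (5 mice per diet, axes starting at 0). The ketogenic mice lie below every control mouse for Notch1 (246 to 274 against 317 to 358) and for Dll4 (357 to 383 against 402 to 436), whereas the diets overlap for the other 8 genes.

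Notch1 (ENSMUSG00000026923.15), the receptor with the most reads, lies on the minus strand of chromosome 2 from 26457903 to 26516663 (GRCm38, GENCODE M21). Its normalized counts were 317, 344, 325, 347 and 358 CPM in control mice 1 to 5 and 272, 267, 246, 263 and 274 CPM in ketogenic mice 1 to 5. Every ketogenic mouse was lower than every control mouse, as was the case for 1.94% of all tested genes and for 1.99% of the 8081. The mean was 338 ± 17.1 CPM on control diet and 265 ± 11.1 CPM on ketogenic diet (SD, n = 5 each). The log2 fold change was -0.35 (SE 0.0417, 95% interval -0.44 to -0.26), with an adjusted p of 0.00222 in edgeR. By p-value Notch1 ranked 14 of 15949 genes, and 3 among those called lower. An exact permutation test (two-sided, all regroupings of the 10 mice) gave p = 0.00794, the smallest it can give. Exons of the antisense gene 0610009E02Rik overlap Notch1 and held 14 to 70 reads per mouse, beside 2920 to 4200 for Notch1; the library kit does not mark the strand.

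Notch4 (ENSMUSG00000015468.14, chromosome 17, 34564268 to 34588503) is a receptor largely restricted to endothelial cells. Its normalized counts were 72.1, 79.9, 79.9, 77.4 and 78.9 CPM in the control mice and 71.2, 73.2, 52.8, 61.7 and 72.7 CPM in the ketogenic mice. All ketogenic mice were below the median control mouse, but 2 of them were above the lowest control mouse, so the diets overlapped. The means were 77.7 ± 3.25 and 66.3 ± 8.89 CPM (SD, n = 5 each), with a log2 fold change of -0.23 (SE 0.0851). The adjusted p in edgeR was 0.189, and the exact permutation p was 0.0238. Without ketogenic mouse 3, the lowest, the log2 fold change was -0.15.

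Dll4 (ENSMUSG00000027314.6) is the Notch ligand typical of arterial and sprouting endothelium. It lies on the plus strand of chromosome 2 from 119325784 to 119335962. Normalized counts were 416, 402, 425, 436 and 408 CPM in the control mice and 383, 364, 366, 357 and 370.4 CPM in the ketogenic mice. The lowest control mouse was above the highest ketogenic mouse. The means were 417 ± 13.7 and 368 ± 9.57 CPM (SD, n = 5 each), with a log2 fold change of -0.18 (SE 0.0307, 95% interval -0.25 to -0.11) and an adjusted p of 0.0170 in edgeR. The exact permutation p was 0.00794. The call was kept in 14 of 21 alternative analyses, and was lost in 7. These were the fit with a cardiomyocyte marker score as covariate (adjusted p = 0.187), limma on log2(RPKM + 0.1) (0.101) and on log2(RPKM + 1) (0.0755), a block by replicate number (0.0701), and the fits without control mouse 3 (0.0533), without ketogenic mouse 4 (0.0521) and without ketogenic mouse 3 (0.0509).

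The Dll4 difference was larger after a correction for a ceiling in the counts. Among 26848 genes with at least 1000 exonic bases, no count rose clearly beyond 2 reads per exonic base, the number left when reads with the same start and strand are counted once. The largest was 1.01 times that limit. Whether duplicate reads were removed is not given in the sources used here. Dll4 filled 52.5% to 63.6% of these positions, more than any other member, while Hey1 filled 38.2% and Notch1 12.3% on average. With counts corrected for this ceiling, an alternative chosen after seeing the data, the log2 fold change was -0.26 (SE 0.0417, adjusted p = 0.0136) for Dll4 and -0.38 (adjusted p = 0.00258) for Notch1. Dll4 also shares exonic bases with the antisense gene Gm14207, which held 177 to 356 reads per mouse beside 4047 to 4899 for Dll4.

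The promoter sequences of the members that fell are shown with that of Hey2, which was not called. Rbpj recognises a short motif that only some of the members searched hold. RefSeq windows (GRCm38.p6) from 250 bases before to 50 bases after a transcription start matched 8 of 10 members in 10 windows. Hes1 and Hey1 had no window, so their promoters were not searched. The RefSeq start used for Notch1 lies inside the GENCODE M21 span given above, which begins at 26516663 on the minus strand. The motif TGGGAA was searched on both strands (TTCCCA on the other). It was found in 25.6% of 32851 promoters of the same length, and in 3 of 10 member windows, which belonged to Hey2 and Rbpj. The windows of Rbpj overlap and share a match. The E-box CACGTG was found in 7.15% of all promoters and in no member window. Hey2 held 2 matches of the longer form GTGGGAA, found in 6.38% of all promoters, and 1 of them falls within the bases printed. Each line gives 230 bases, from 250 to 21 bases before the start, 5′ to 3′ on the gene's strand, with TGGGAA or TTCCCA in capitals.
Notch1 (chr2:26503843-26504072, minus strand): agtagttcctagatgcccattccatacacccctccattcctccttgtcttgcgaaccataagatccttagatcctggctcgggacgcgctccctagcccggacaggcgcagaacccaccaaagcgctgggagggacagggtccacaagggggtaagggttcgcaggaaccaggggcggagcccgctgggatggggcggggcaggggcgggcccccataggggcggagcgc
Dll4 (chr2:119325534-119325763, plus strand): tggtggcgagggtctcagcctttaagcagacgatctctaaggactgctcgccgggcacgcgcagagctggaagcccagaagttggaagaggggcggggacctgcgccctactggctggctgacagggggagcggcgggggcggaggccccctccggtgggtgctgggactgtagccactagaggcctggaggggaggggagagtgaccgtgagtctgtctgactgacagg
Hey2 (chr10:30842804-30843033, minus strand): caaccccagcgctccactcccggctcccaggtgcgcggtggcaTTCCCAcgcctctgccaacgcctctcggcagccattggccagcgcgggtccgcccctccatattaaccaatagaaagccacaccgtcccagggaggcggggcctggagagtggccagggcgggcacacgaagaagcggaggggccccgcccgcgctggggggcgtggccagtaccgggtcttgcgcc
A match is a stretch of letters and not a measured binding site, and its absence describes only these windows.

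The other ligands were not called. Jag1 (ENSMUSG00000027276.7, chromosome 2, 137081456 to 137116644) had 179, 176, 169.6, 185 and 185 CPM in control mice and 167, 174, 179.5, 156 and 165 CPM in ketogenic mice. The diets overlapped, with 3 ketogenic mice below the lowest control mouse. Its log2 fold change was -0.09 (SE 0.0429, 95% interval -0.18 to 0.0082, adjusted p = 0.322 in edgeR), and the exact permutation p was 0.0635.

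Dll1 (ENSMUSG00000014773.13, chromosome 17, 15367354 to 15376872) and Jag2 (ENSMUSG00000002799.5, chromosome 12, 112907819 to 112929776) are further ligands, and both varied widely among mice of one diet. Dll1 ranged from 84.7 to 114 CPM in control mice and from 77.0 to 119 CPM in ketogenic mice. Jag2 ranged from 83.3 to 97.1 CPM in control mice and from 64.8 to 101 CPM in ketogenic mice. For both, ketogenic mouse 1 was the highest of the 10 mice. The log2 fold change was -0.10 (95% interval -0.34 to 0.15, adjusted p = 0.687 in edgeR) for Dll1 and -0.16 (-0.38 to 0.05, adjusted p = 0.421) for Jag2. With 1 mouse left out the values ranged from -0.20 (without ketogenic mouse 1) to -0.04 (without ketogenic mouse 4) for Dll1 and from -0.25 (without ketogenic mouse 1, unadjusted p = 0.0133 and adjusted p = 0.189 in edgeR) to -0.08 (without ketogenic mouse 3) for Jag2. Exons of A930024N18Rik, with 29 to 55 reads per mouse, overlap Dll1 on the other strand.

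Among the target genes, Hey1 (ENSMUSG00000040289.8, chromosome 3, 8663359 to 8667256), a transcriptional repressor, showed the widest range. Its normalized counts were 246, 243, 233, 250.1 and 199.9 CPM in the control mice and 233, 208, 194, 143 and 204 CPM in the ketogenic mice. Ketogenic mouse 4 was far lower than the rest. Control mice 3 and 5 lay within the ketogenic range, control mouse 3 (232.5 CPM) just below ketogenic mouse 1 (233.1 CPM). The means were 234 ± 20.4 and 196 ± 33.3 CPM (SD, n = 5 each). The log2 fold change was -0.26 (SE 0.108, 95% interval -0.49 to -0.02, adjusted p = 0.239 in edgeR), and the exact permutation p was 0.0556.

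Hes1 and Hey2, repressors of the same wider family, were not called. Hes1 (ENSMUSG00000022528.7, chromosome 16, 30064384 to 30067796) ranged from 74.5 to 99.0 CPM in control mice and from 68.1 to 84.5 CPM in ketogenic mice, with a log2 fold change of -0.10 (95% interval -0.28 to 0.09, adjusted p = 0.577 in edgeR) and of -0.03 without control mouse 4, the highest. Hey2 (ENSMUSG00000019789.8, chromosome 10, 30832359 to 30842801) ranged from 24.7 to 27.6 and from 21.6 to 28.2 CPM, with a log2 fold change of -0.05 (-0.24 to 0.14, adjusted p = 0.806 in edgeR). These intervals still include modest changes in either direction.

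Rbpj (ENSMUSG00000039191.12, chromosome 5, 53466152 to 53657362), the DNA-binding partner of all Notch receptors, was the one member with a log2 fold change above 0. Its normalized counts were 36.4, 34.8, 39.2, 40.9 and 40.6 CPM in control mice and 35.9, 40.4, 41.6, 40.1 and 37.8 CPM in ketogenic mice. The groups overlapped almost entirely. The log2 fold change was 0.03 (SE 0.0694, 95% interval -0.12 to 0.18, adjusted p = 0.866 in edgeR).

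**Figure D2:**
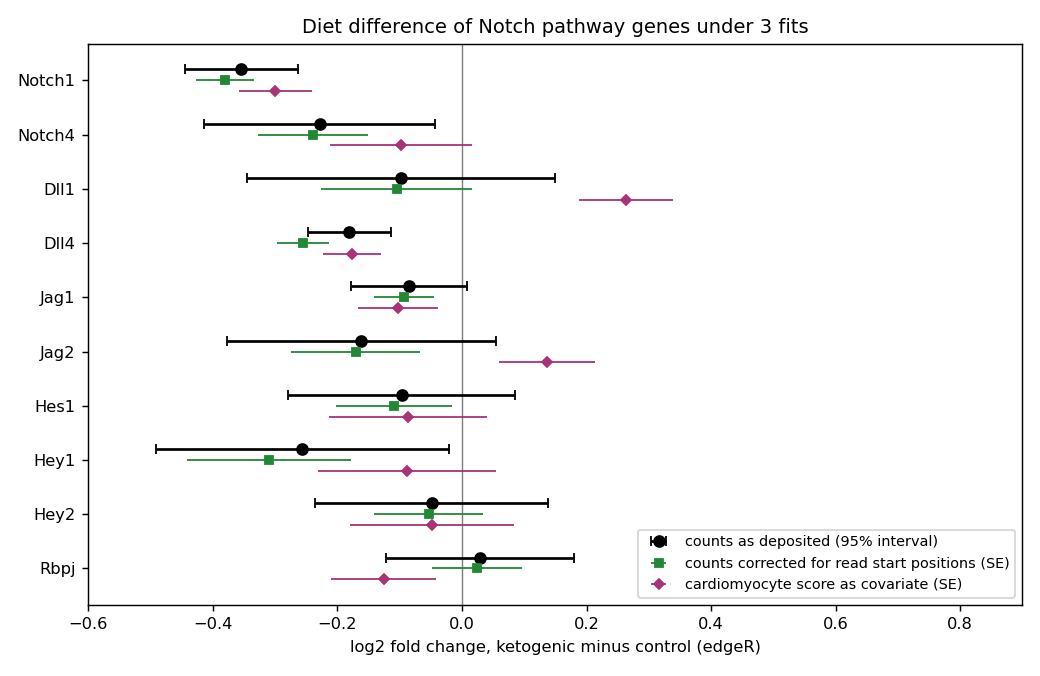
Log2 fold change, ketogenic minus control, of each Notch pathway gene in edgeR for counts as deposited (black, 95% interval), counts corrected for read start positions (green, SE) and with a cardiomyocyte marker score as covariate (purple, SE). Notch1 and Dll4 lie below 0 in each (-0.35, -0.38 and -0.30 for Notch1, -0.18, -0.26 and -0.18 for Dll4), while Dll1 and Jag2 lie above 0 with the covariate (0.26 and 0.14).

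Cardiomyocyte markers differed from most members in direction. All 10 had a log2 fold change above 0, and 8 had an unadjusted p under 0.05, whereas none had an adjusted p under 0.05. Their summed level had a median of 654 CPM in control mice and 851 in ketogenic mice. With a score of these markers as a covariate, the log2 fold change was -0.30 for Notch1 (SE 0.0589, adjusted p = 0.106 in edgeR) and -0.18 for Dll4 (SE 0.0460, adjusted p = 0.187). The unadjusted p-values of that edgeR fit were 3.34e-04 for Notch1, 0.00270 for Dll4 and, in the opposite direction, 0.00502 for Dll1. In that fit 19 of all tested genes were called, compared with 213 without the covariate. The score itself differed by diet, from -1.30 to 0.17 in control mice and from -0.43 to 1.52 in ketogenic mice. This fit therefore cannot tell the diet and the score apart. The SE of Dll4 was 0.0307 without the score. The value became -0.10 for Notch4 and -0.09 for Hey1, and was above 0 for Dll1 (0.26, adjusted p = 0.235) and Jag2 (0.14, adjusted p = 0.558).

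No arterial endothelial marker passed the adjusted test. Of 12 markers, 11 had a log2 fold change below 0, beside 51.4% of all tested genes. Of these, 3 had an unadjusted p under 0.05 (Gja5, Bmx and Mecom, named after their values were seen), beside 9.26% of all tested genes. Their sum was 2600 to 2947 CPM in control mice and 2370 to 2717 in ketogenic mice, with overlap. Gja4, Gja5 and Efnb2 also stand in the wider list of Notch pathway genes below. Of 4 venous markers, 2 were lower at an unadjusted p under 0.05 and 2 had a log2 fold change above 0. Values below 0 were also found in 5 of 7 endothelial, 4 of 6 capillary, 3 of 4 endocardial and 2 of 4 lymphatic markers. They were found in 7 of 9 smooth muscle and pericyte markers and in 1 of 6 fibroblast markers. Gja4 held 2963 to 3059 reads per mouse over 1685 exonic bases, near the ceiling described with Dll4. Marker counts were not corrected for this ceiling. The part of a smaller share of arterial cells in the lower Dll4 and Notch1 was not tested.

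**Figure D3:**
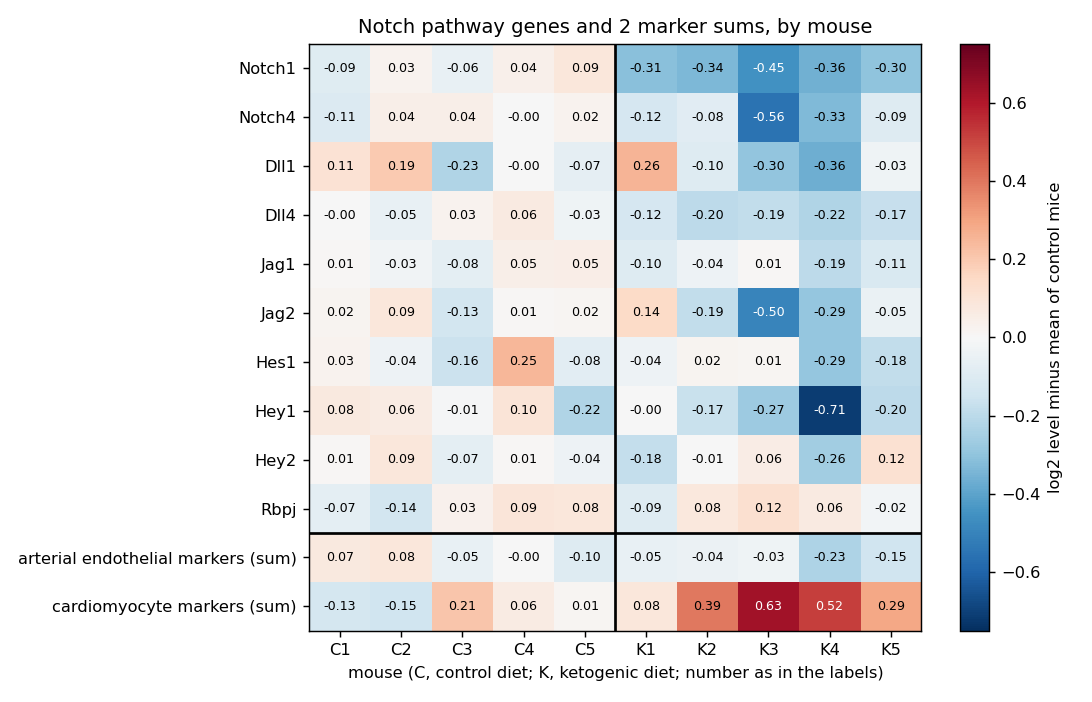
Log2 level of each Notch pathway gene, and of the summed arterial and cardiomyocyte markers, in each mouse minus the mean of the control mice (C, control diet; K, ketogenic diet; blue is lower, red is higher). Notch1 and Dll4 are below the control mean in every ketogenic mouse, and ketogenic mice 3 and 4, with the strongest deviations (-0.56 for Notch4 in mouse 3, -0.71 for Hey1 in mouse 4), also have the highest cardiomyocyte sums.

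The members did not fall evenly in the ketogenic mice. Below the mean of the control mice lay 8, 8, 6, 9 and 9 of the 10 members in ketogenic mice 1 to 5, and 4, 4, 7, 2 and 5 in control mice 1 to 5. Ketogenic mouse 4 was the lowest of all 10 mice for 6 members (Dll1, Dll4, Jag1, Hes1, Hey1 and Hey2) and ketogenic mouse 3 for 3 members (Notch1, Notch4 and Jag2). The arterial sum was also lowest in ketogenic mouse 4 (2370 CPM), and the cardiomyocyte sum was highest in ketogenic mice 3 and 4 (1005 and 930.1 CPM). Without ketogenic mouse 4, the log2 fold change of Hey1 was -0.16.

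Notch1 and Dll4 varied together across the diets but not within them. Over the 10 mice their log2 CPM had a Pearson r of 0.88, and after the mean of each diet was removed r was 0.03. Dll1 and Jag2 varied together within the diets as well, with an r of 0.88 before and after the diet means were removed. These values are descriptions over libraries that share diet, mouse and preparation.

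The genes whose pattern was most like a member were read out for Dll4, Notch4 and Hey1. For Dll4 these were Slc2a1, encoding the glucose transporter GLUT1 (r = 0.97, and 0.81 after removal of diet means), Myo10, encoding a filopodial myosin (r = 0.96), I830077J02Rik, Pmpca and Art3 (r = 0.94 each). Slc2a1 itself was lower on the ketogenic diet, with a log2 fold change of -0.38 and an adjusted p of 0.00308 in edgeR. For Notch4 they were Glb1l3, Gm22637, Aak1, Psd and Mafg (r from 0.96 to 0.97), and for Hey1 they were Rgs10, Trip10, Ldb2, Hip1r and Psen2 (r from 0.92 to 0.95). Glb1l3 and Gm22637 had few reads, with means of 1.11 and 1.45 CPM. Taken as the highest of all tested genes over 10 mice, these r values are high in part through that choice and were not tested. Psen2 encodes the catalytic subunit of the protease that releases the Notch intracellular part.

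**Figure D4:**
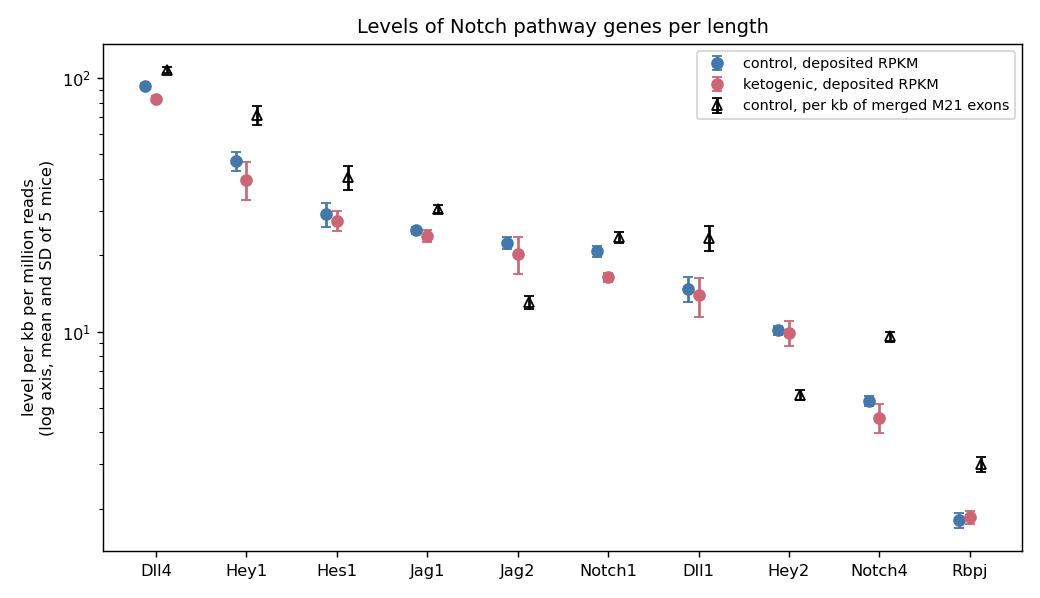
Level of each Notch pathway gene per kilobase, scaled to the library total, on a log axis, as mean and SD of 5 mice, in the deposited RPKM of both diets and, for control mice, computed per kilobase of merged GENCODE M21 exons. Dll4 is the highest member on both scales and Rbpj is the lowest, whereas Jag2, Notch1, Dll1, Hey2 and Notch4 change place with the gene length used.

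Per gene length, Dll4 was the highest member and Rbpj the lowest. In control mice, deposited RPKM values were 93.4 ± 2.67 for Dll4, 47.2 ± 3.99 for Hey1 and 29.0 ± 3.12 for Hes1 (SD, n = 5 each). Then followed Jag1 at 25.1 ± 0.839, Jag2 at 22.4 ± 1.25, Notch1 at 20.8 ± 1.08 and Dll1 at 14.7 ± 1.66 RPKM. The lowest were Hey2 at 10.1 ± 0.436, Notch4 at 5.31 ± 0.242 and Rbpj at 1.80 ± 0.122 RPKM. The ranges of Hes1 and Jag1, of Jag1 and Jag2, and of Jag2 and Notch1 overlapped, so these neighbours do not have a clear order. Levels per kilobase of merged exons in M21 differed in order, with Jag2 at 13.1 and Dll1 at 23.5, next to Notch1 at 23.6, in control mice.

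A wider list of 60 Notch pathway genes, from proteases to nuclear cofactors, held 1 called gene. Of these, 55 were tested, since Dll3, Dlk1, Dlk2, Hes5 and Hes7 had too few reads (at most 23 in any mouse). One gene, Mib1, passed the adjusted test, as higher, and none passed as lower, beside 0.809% and 0.527% of all tested genes. At an unadjusted p under 0.05, 3 were higher (Mib1, Adam10 and Lfng) and 4 lower (Furin, Psen2, Neurl1a and Gja5), in all 7 of 55 beside 17.8% of all genes. Of those 7 genes, only Lfng was to be named whatever its value, and Mib1 is named for its adjusted p under 0.05. The others were named after their values were seen. The median log2 fold change of the 55 was -0.02, with 24 above and 31 below 0.

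Mib1, encoding the ubiquitin ligase that starts ligand uptake in the signalling cell, had 136, 139, 137, 142 and 143 CPM in control mice and 164, 161, 155, 152 and 154 CPM in ketogenic mice. The highest control mouse was below the lowest ketogenic mouse. The log2 fold change was 0.17 (SE 0.0341, adjusted p = 0.0358 in edgeR), and the call was kept in 7 of 21 alternative analyses, of which 2 of 10 were those that left out 1 mouse (adjusted p from 0.00157 to 0.166 over the 21). None of the 17 nuclear cofactors and neither of the other receptors was called. Notch2 had a log2 fold change of -0.13 (adjusted p = 0.288 in edgeR), and Notch3, a receptor of smooth muscle cells and pericytes, one of 0.06 (adjusted p = 0.804). With the cardiomyocyte score as covariate the value of Notch3 was 0.39 (SE 0.104, unadjusted p = 0.00323 and adjusted p = 0.196 in edgeR). Lfng, which adds a sugar to Notch receptors, had a value of 0.30 (adjusted p = 0.273). The targets Heyl and Nrarp had adjusted p-values of 0.999 and 0.963, and Nrarp had 6 to 16 reads per mouse, too few to show a modest change.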

How the data were processed

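RNA was measured in CD31+ cardiac cells of 5 control diet and 5 ketogenic diet mice. The authors deposited counts, reads per gene for 46983 genes, and RPKM, that is, counts divided by gene length and by the library total. The RPKM entered only the level order and 2 alternatives. The submitters' processing notes name bcl2fastq 2.17.1.14, STAR 2.3, HTSeq 0.6.0 and mm10; the annotation release and any duplicate removal are not given in the sources used here. Symbols and positions are from GENCODE M21 on GRCm38 (46488 identifiers matched, of which 37902 had the same version; Jag2, Hes1 and Hey2 matched without version).

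The diet comparison used edgeR 4.0.16 under R 4.3.3 (TMM, filterByExpr, quasi-likelihood F-test, 15949 genes, Benjamini-Hochberg), fitted on all libraries without a block. Each member was also put to an exact permutation test (two-sided). The alternatives were other scaling factors, other filters, DESeq2 1.42.0, limma 3.58.1 on log2(RPKM + 1) and log2(RPKM + 0.1), a block by replicate number, a cardiomyocyte score and each mouse left out. A correction for read start positions was chosen after seeing the data. Scripts were tested on simulated data.

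The named genes are all members, other pathway genes with an adjusted p under 0.05, Notch2, Notch3, Nrarp, Heyl and Lfng, and the 5 genes most correlated with Dll4, Notch4 and Hey1. The members and lists were chosen with earlier results of these data known. The p-values weigh the difference between the diets against the spread between mice, and do not measure that spread itself.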

Additional observations from a re-analysis of the deposited data

Results flagged for a closer look

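Among 58 groups of 5 mice, in which the most extreme mouse was compared with the range of its group, 4 held a mouse that stood apart, where chance gives 2.9 (1 in 20). No Notch pathway member was among them. Control mouse 5 was highest for Heyl, with a gap of 0.830 of the range of the group. Control mouse 2 was lowest for the endothelial marker sum (0.717 of the range). That mouse also had the largest library of the control mice (12206734 counted reads). Reads of the endothelial markers Pecam1 (6770 to 7020) and Cdh5 (7356 to 7571) hardly differed between mice. The part of library size, and of the ceiling described with Dll4, in this sum was not tested. For the macrophage marker sum, control mouse 1 (0.759) and ketogenic mouse 4 (0.907) were highest, the sum reaching 448 CPM in that control mouse and 192 in that ketogenic mouse. The bound for 5 mice was 0.71.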

How the results depend on the processing

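Notch1 kept its call in 20 of 21 alternative analyses and was lost with the cardiomyocyte covariate, and its log2 fold change ranged from -0.38 to -0.32 when 1 mouse was left out. Dll4 kept its call in 14 of 21 (-0.19 to -0.16 with 1 mouse left out). The 213 genes called became 819 in DESeq2, 110 in limma on log2(RPKM + 0.1), 19 with the covariate and 86 to 492 with 1 mouse left out. The 2 called members became 1 in both limma fits, 0 with the covariate and 1 to 2 with 1 mouse left out. The 1 called gene of the wider list became 0 with upper quartile factors, without a filter, in both limma fits and with the covariate, 2 in DESeq2 and 0 to 2 with 1 mouse left out, and the 7 at an unadjusted p under 0.05 became 5 to 12. The cause of these changes was not tested. With the replicate block, 113 genes, 1 member and 0 genes of the wider list were called (adjusted p = 0.0167 for Notch1, 0.0701 for Dll4). Same-numbered mice did not deviate together (correlations from -0.13 to 0.09). No source used here says whether the numbers pair the mice, and these correlations cannot settle it.

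Direction reversed with the covariate for Dll1 (0.26), Jag2 (0.14), Rbpj (-0.13) and Nrarp (0.15), in a fit that cannot tell the diet and the score apart. With 1 mouse left out, log2 fold changes ranged from -0.089 to 0.0014 for Hey2, -0.00047 to 0.062 for Rbpj, -0.012 to 0.13 for Notch3, -0.19 to 0.12 for Nrarp and -0.058 to 0.069 for Heyl. Heyl was -0.18 with the covariate (adjusted p = 0.663), and turned above 0 in others, with 0.0046 with DESeq2 size factors, 0.012 with library size alone, 0.0023 without a filter, 0.0081 in DESeq2, 0.0073 and 0.0074 in limma and 0.0019 with corrected counts. Notch3 was 0.39 with the covariate. Nrarp had no value with at least 10 counts in every mouse.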
